A study of Homo sapiens with 6 samples.

Results

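Keratins, claudin-4, vimentin, N-cadherin and the transcription factors of epithelial-mesenchymal transition (EMT) were followed in Mum-2b cells, a line of human uveal melanoma, after knockdown of NELFCD. The NELFCD protein belongs to the negative elongation factor complex, which keeps polymerase II paused near gene starts. The members are 10 genes, taken by symbol from the 58735 rows of the deposited gene table: KRT8, KRT18, KRT7, CLDN4, VIM, CDH2, SNAI2, ZEB1, ZEB2 and TWIST1. Libraries of knockdown cells (genotype NELFCD_knockdown, titles shRNA1, n = 3) were set against libraries of control cells (genotype WT, titles NC, n = 3). Neither treatment times nor clones were labelled, all knockdown titles carry a single hairpin number, and whether control cells carried a hairpin was not given. The labels also do not say whether the replicates were separate cultures, so p-values measure only the spread between these libraries, which may be technical. RNA came from whole cultures, in which fewer cells with a transcript and less of it per cell cannot be told apart.

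Keratins are the intermediate filament proteins of epithelia, built from pairs of a type II chain (KRT8, KRT7) with a type I chain (KRT18), while vimentin forms the filaments of mesenchymal and melanocytic cells. Claudin-4 is a tight junction protein of epithelia, and N-cadherin (CDH2) joins mesenchymal and neural cells. SNAI2, ZEB1 and ZEB2 are zinc finger repressors and TWIST1 is a basic helix-loop-helix factor, and in carcinomas they repress epithelial genes. In melanocytic cells SNAI2 and ZEB2 belong to the differentiated state, and ZEB1 and TWIST1 are linked to dedifferentiated melanoma. Keratins 8 and 18 beside vimentin have been described in aggressive uveal melanoma cells.

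The targeted gene NELFCD was at 20.7, 37.4 and 40.3 CPM (counts scaled for sequencing depth) in knockdown replicates 1 to 3, against 65.5, 88.3 and 83.55 CPM in control replicates 1 to 3, so 41.5% of the control mean remained. Libraries held 14600333 to 16656630 counts in knockdown and 14306733 to 16106948 counts in control cells. In both groups replicate 1 stood apart from replicates 2 and 3 over most genes. A pair below is the knockdown and the control library of the same number. The data do not show that numbers 2 and 3 match between the groups.

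Of the 10 members KRT18 and KRT7 rose and CLDN4, SNAI2 and ZEB2 fell in the knockdown once the replicate number was part of the model. The largest change was that of CLDN4, which was left at 38.2% of its control level. KRT8, VIM, CDH2, ZEB1 and TWIST1 were not called. All 10 members passed the filter on low counts. Genes were tested with edgeR's quasi-likelihood test at a Benjamini-Hochberg adjusted p under 0.05 over the 14844 genes tested. Without the replicate number that test called 0 of the 10 members and 0.0% of all genes, 2 members (CLDN4 and SNAI2) had an unadjusted p under 0.05, and DESeq2 called CLDN4 alone, as lower, beside 0.382% of genes higher and 0.849% lower (1.23% in all). With the replicate number it called 2 members higher and 3 lower, beside 5.48% of all genes higher and 8.01% lower (13.5% in all). Under DESeq2 and limma-voom with the replicate number the members' calls were again 2 higher and 3 lower, beside 3.33% of all genes higher and 6.8% lower (10.1% in all) and 5.79% higher and 8.56% lower. With replicate 1 as a batch term they were 2 higher and 4 lower, beside 9.29% and 11.7% (21.0% in all). In all 3 pairs KRT8, KRT18, KRT7 and CDH2 were higher in the knockdown, beside 25.9% of all genes, and CLDN4, SNAI2, ZEB2 and TWIST1 were lower, beside 26.9%. The median log2 fold change of the 10 members was -0.03, and that of all genes was 0.00. Rises and falls below refer to the fit with the replicate number, and "without it" names the other fit. CPM values were scaled on library sizes adjusted by the trimmed mean of M-values.

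Promoter sequences are shown for CLDN4, the member with the largest change, for ZEB2, which fell, and for its paralog ZEB1, which was not called. They are RefSeq windows on GRCh38.p14 of 300 bases, from 250 before to 50 after an annotated start. Capitals mark every CANNTG, the E-box bound by helix-loop-helix factors such as TWIST1. SNAI and ZEB factors bind the E-box forms CAGGTG and, on the other strand, CACCTG, which are a subset of CANNTG. CLDN4 and ZEB2 have 1 window each in the table and ZEB1 has 7, of which 2 hold CAGGTG or CACCTG, and the ZEB1 window with the most of these forms is shown.
CLDN4: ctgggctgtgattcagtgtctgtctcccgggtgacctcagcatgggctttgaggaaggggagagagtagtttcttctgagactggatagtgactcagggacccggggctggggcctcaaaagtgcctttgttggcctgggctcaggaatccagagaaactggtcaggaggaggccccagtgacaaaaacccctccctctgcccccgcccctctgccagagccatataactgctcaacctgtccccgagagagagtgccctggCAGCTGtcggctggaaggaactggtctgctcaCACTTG
ZEB2: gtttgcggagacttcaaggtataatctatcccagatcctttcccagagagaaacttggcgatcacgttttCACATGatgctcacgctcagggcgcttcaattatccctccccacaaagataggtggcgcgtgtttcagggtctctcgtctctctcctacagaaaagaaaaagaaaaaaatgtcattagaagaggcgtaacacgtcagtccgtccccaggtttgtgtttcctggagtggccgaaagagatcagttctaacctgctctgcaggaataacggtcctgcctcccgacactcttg
ZEB1: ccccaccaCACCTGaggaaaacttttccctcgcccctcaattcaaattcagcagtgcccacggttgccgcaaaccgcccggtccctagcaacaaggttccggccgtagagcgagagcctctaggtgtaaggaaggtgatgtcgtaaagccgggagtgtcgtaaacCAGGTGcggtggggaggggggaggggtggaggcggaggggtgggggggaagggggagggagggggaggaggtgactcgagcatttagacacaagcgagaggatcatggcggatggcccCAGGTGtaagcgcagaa
The CLDN4 window lies at chr7:73830746-73831045 (plus strand), the ZEB2 window at chr2:144520070-144520369 (minus strand) and the ZEB1 window at chr10:31318966-31319265 (plus strand). CLDN4 holds 2 CANNTG motifs and ZEB2 holds 1, and neither window has CAGGTG or CACCTG. ZEB1 has 3 of these forms, at positions -242, -85 and 33 from the start. Of the 35116 RefSeq windows of this length in the table used, 20.6% hold CAGGTG or CACCTG and 68.7% hold CANNTG. The deposited CLDN4 gene model begins further upstream (chromosome 7, 73799542 to 73832693, hg38) than the RefSeq start of its window. The same holds for the deposited models of ZEB2 (chromosome 2, 144364364 to 144524583) and ZEB1 (chromosome 10, 31318495 to 31529814) and the windows shown.

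Per unit of gene length, vimentin was the most abundant member and ZEB2 the least. In the deposited FPKM values (fragments per kilobase, scaled for depth), VIM was at 550 ± 7.24 in knockdown and 589 ± 123 in control cells (SD, n = 3 each), rank 32 among 16242 detected protein-coding genes. KRT7 followed at 214 ± 11.1 FPKM in knockdown and 182 ± 1.59 in control cells. KRT18 was at 153 ± 29.4 FPKM in knockdown and 113 ± 36.3 in control cells. KRT8 was at 117 ± 22.3 FPKM in knockdown and 106.0 ± 36.0 in control cells. The keratin messages thus stood among the most abundant transcripts, at ranks 119, 206 and 261 for KRT7, KRT18 and KRT8. CDH2 (20.6 ± 3.03 FPKM in knockdown, 19.2 ± 2.82 in control cells) and ZEB1 (15.2 ± 0.321 in knockdown, 15.4 ± 2.14 in control cells) formed a middle tier with TWIST1 (10.7 ± 0.375 in knockdown, 13.2 ± 0.477 in control cells). CLDN4 was at 4.02 ± 0.963 FPKM in knockdown and 10.7 ± 1.41 in control cells. SNAI2 was at 2.05 ± 0.538 FPKM in knockdown and 3.86 ± 0.738 in control cells, and ZEB2 at 1.20 ± 0.158 in knockdown and 1.64 ± 0.303 in control cells. In control libraries KRT18 and KRT8 overlapped in level, as did CDH2 with ZEB1 and ZEB1 with TWIST1. The order rests partly on gene length, because the deposited ZEB2 length is 25058 bases against 9541 for its longest principal transcript. Per kilobase of that transcript, an alternative chosen after seeing the data, KRT8 stood above KRT18 (386 and 321 in knockdown, 340 and 231 in control cells, CPM per kilobase on unadjusted totals). ZEB2 stood above SNAI2 only in knockdown cells on that scale (3.24 and 2.94, against 4.27 and 5.34 in control cells), and ZEB1 above CDH2 in both groups.

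**Figure D1:**
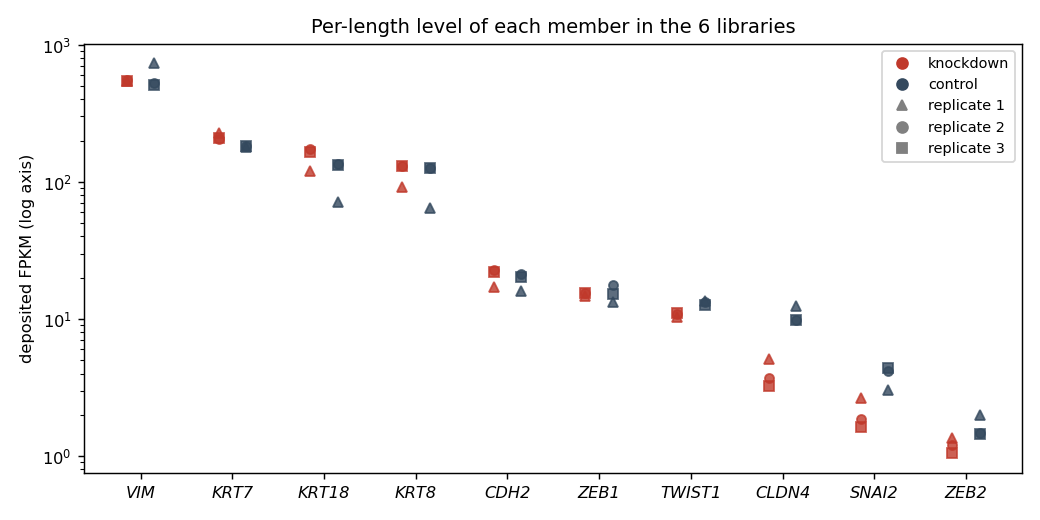
Deposited FPKM of each member (log axis) in the 3 knockdown (red) and 3 control (dark) libraries, with the replicate number as marker shape. VIM and the 3 keratins lie at 64.4 FPKM or more in every library, and SNAI2 and ZEB2 at 4.37 FPKM or less.

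KRT18, the type I partner of keratin 8, rose in the knockdown and was higher in each replicate pair. KRT18 (ENSG00000111057, chromosome 12, 52948871 to 52952901, hg38) was at 401, 561 and 537 CPM in knockdown replicates 1 to 3, against 234, 432 and 427 CPM in control replicates 1 to 3. Knockdown replicate 1 lay below control replicates 2 and 3, so the groups overlapped, while every knockdown library was above the control of the same number. The group means were 499.5 ± 86.5 CPM in knockdown and 364 ± 113 CPM in control cells (SD, n = 3 each; exact two-sided permutation p = 0.3). The log2 fold change was 0.49 ± 0.087 (SE) with an edgeR adjusted p of 0.0093, and 0.46 with an adjusted p of 0.97 without the replicate number. It was called in 11 of 11 fits that took the replicate number into account or left replicate 1 out (largest adjusted p 0.023). Without control replicate 1 the value from the fit without the replicate number was 0.215, and over leaving out each library it ran from 0.215 to 0.594.

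KRT8, the type II partner of keratin 18, was higher in pair 1 and nearly level in pairs 2 and 3. KRT8 (ENSG00000170421, chromosome 12, 52897187 to 52949954, hg38) was at 657, 900.5 and 897 CPM in knockdown replicates 1 to 3, against 452, 869 and 868 CPM in control replicates 1 to 3. The pairs stood at 145%, 104% and 103% of the control, and the groups overlapped. A log2 fold change of 0.21 ± 0.095 (SE) was not called by edgeR (adjusted p = 0.17, and 1.0 without the replicate number; exact permutation p = 0.5). Of the 11 fits with the replicate number considered, only that with no filter on low counts called it (adjusted p = 0.029).

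KRT7, a type II keratin of glandular and ductal epithelia, rose and was the member with separate groups on the high side. KRT7 (ENSG00000135480, chromosome 12, 52232520 to 52252186, hg38) was at 968, 848 and 859 CPM in knockdown replicates 1 to 3, against 752, 742 and 748 CPM in control replicates 1 to 3. The 3 controls were nearly equal, and the lowest knockdown library stood well above them. The fitted log2 change was 0.25 ± 0.059 (SE) with an edgeR adjusted p of 0.026, and 0.85 without the replicate number. Leaving out pair 2 ended the call (log2 fold change 0.28, edgeR adjusted p = 0.16), as did leaving out pair 3 (0.27, 0.14). The fold change itself was no smaller in these fits. Groups did not overlap on the high side for KRT7 alone of the 10 members, beside 7.52% of all genes, and on the low side for CLDN4, SNAI2, ZEB2 and TWIST1, beside 7.38% of all genes (14.9% in both directions). An exact permutation test over libraries (two-sided) gave 0.1 for each of these 5, and a design of 3 against 3 cannot go lower.

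The ratio of KRT18 to KRT8 differed between the groups more evenly than either gene. By FPKM the ratio was 1.30, 1.33 and 1.28 in knockdown replicates 1 to 3, against 1.11, 1.06 and 1.05 in control replicates 1 to 3. The mean was 1.31 ± 0.0260 in knockdown and 1.07 ± 0.0285 in control cells (SD, n = 3 each), and replicate 1 stood with replicates 2 and 3 in both groups. The 2 genes lie head to head and share exon sequence on opposite strands, 7.6% of the exon bases of KRT8 and 16.3% of those of KRT18 in GENCODE 29. The strand setting of the counting was not given, so reads from the shared stretch cannot be assigned. Keratin pseudogenes took few counts: 50 rows named as KRT8 pseudogenes held 2.99% to 4.16% of the KRT8 count in knockdown and 2.39% to 4.69% in control libraries. The 67 rows named as KRT18 pseudogenes held 0.302% to 0.547% of the KRT18 count in knockdown and 0.393% to 1.06% in control libraries.

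Vimentin was not called, and its pairs went in opposite directions. VIM (ENSG00000026025, chromosome 10, 17228259 to 17237593, hg38) was at 2921, 2883 and 2842 CPM in knockdown replicates 1 to 3, against 3843, 2691 and 2633 CPM in control replicates 1 to 3. Control replicate 1 stood above all other libraries, and the 3 knockdown libraries were nearly equal. The log2 fold change was -0.06 ± 0.097 (SE; edgeR adjusted p = 0.72, and 1.0 without the replicate number). In replicates 2 and 3 alone VIM was higher in the knockdown by 0.10 (edgeR adjusted p = 0.0029), where 11.7% of all genes were called higher. The ratio of VIM to the summed KRT8, KRT18 and KRT7 by FPKM was 1.24, 1.09 and 1.09 in knockdown replicates 1 to 3, against 2.31, 1.18 and 1.16 in control replicates 1 to 3. That ratio was lower in the knockdown library of each pair, with control replicate 1 apart.

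**Figure D2:**
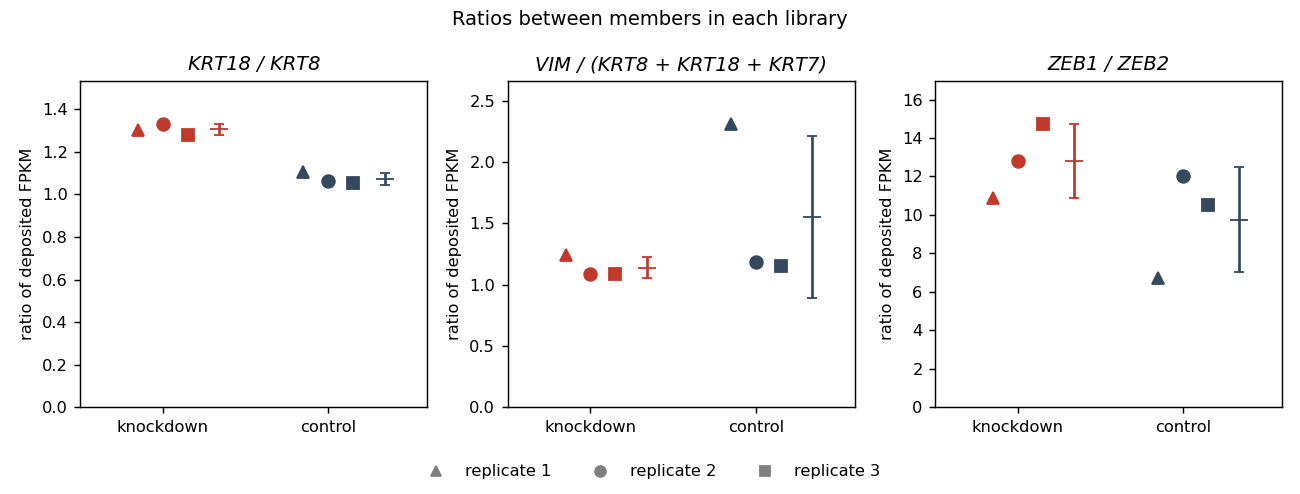
Ratios of deposited FPKM between members in each library, with mean and SD beside the points and replicate number as marker shape. KRT18 over KRT8 is 1.28 to 1.33 in knockdown and 1.05 to 1.11 in control libraries. VIM over the summed keratins is highest in replicate 1 of each group. ZEB1 over ZEB2 is lowest there, and runs from 10.9 to 14.7 in knockdown and from 6.74 to 12.0 in control libraries.

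Claudin-4 fell, and was lower in each pair. CLDN4 (ENSG00000189143) was at 24.99, 17.5 and 15.35 CPM in knockdown replicates 1 to 3, against 59.1, 46.15 and 46.3 CPM in control replicates 1 to 3. All 3 knockdown libraries lay below all 3 controls, with 376, 289 and 224 counts in knockdown against 862, 652 and 741 in control libraries. In the pairs 42.3%, 37.9% and 33.1% of the control level remained. The 95% Poisson interval of the highest knockdown library, which covers counting error only, was 23.2 to 28.5 CPM on the unadjusted total, and that of the lowest control library was 42.1 to 49.2. Fitted over all libraries, the log2 fold change was -1.40 ± 0.093 (SE; edgeR adjusted p = 0.00015), and -1.39 with an adjusted p of 0.49 without the replicate number. It was called in 11 of 11 fits with the replicate number considered (largest adjusted p 0.00019), and DESeq2 without the replicate number gave an adjusted p of 6.1e-05. No exon of CLDN4 overlaps another gene in GENCODE 29.

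N-cadherin was not called. CDH2 (ENSG00000170558, chromosome 18, 27950966 to 28177446, hg38) was at 88.1, 113 and 109 CPM in knockdown replicates 1 to 3, against 80.7, 105 and 99.2 CPM in control replicates 1 to 3. The 3 pairs gave like ratios (109%, 107% and 110% of the control), and the groups overlapped. Its log2 fold change was 0.12 ± 0.061 (SE; edgeR adjusted p = 0.22, and 1.0 without the replicate number), and none of 25 alternatives called it.

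**Figure D3:**
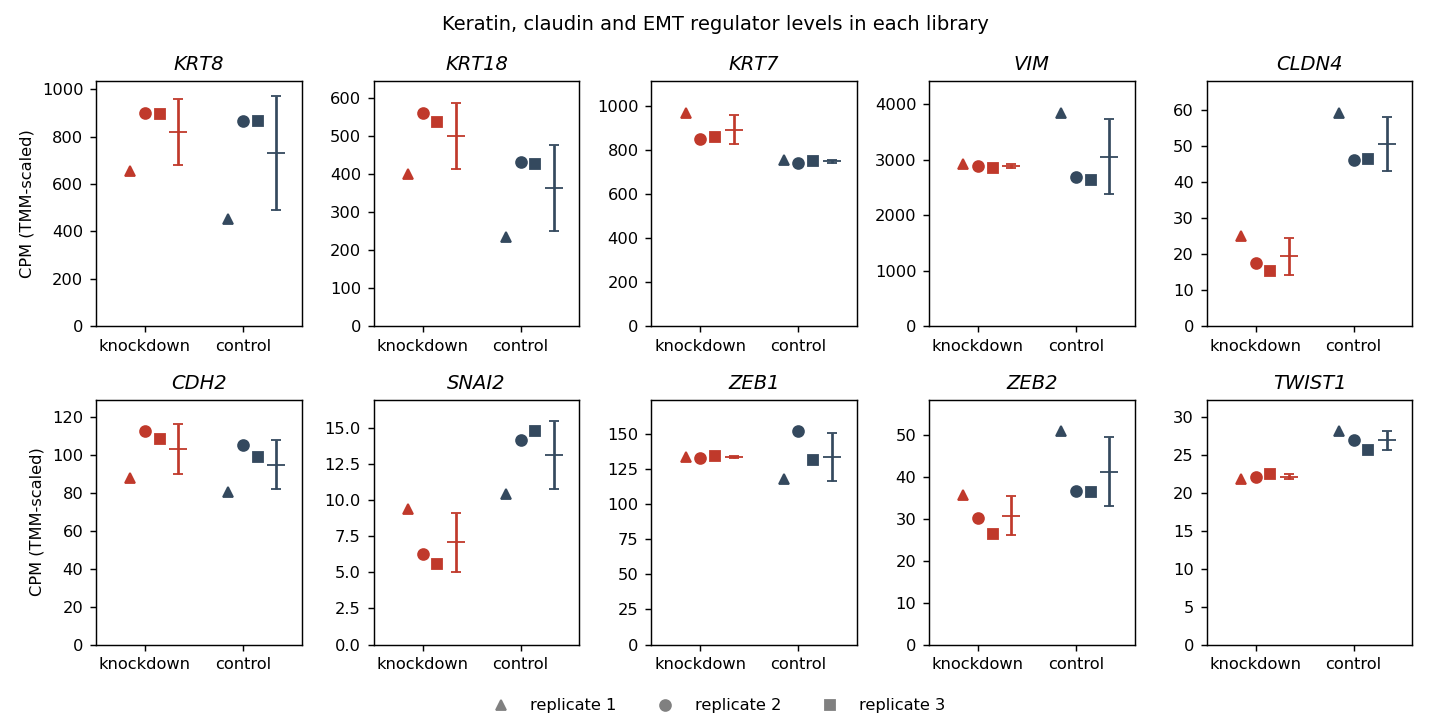
CPM of each member in every library, knockdown left of control, with replicate number as marker shape and mean and SD beside the points. CLDN4 is at 15.35 to 24.99 CPM in knockdown and 46.15 to 59.1 CPM in control libraries, and KRT8 and KRT18 are lowest in replicate 1 of each group.

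Among the EMT transcription factors SNAI2 and ZEB2 fell, and ZEB1 and TWIST1 were not called. SNAI2, the repressor also known as Slug (ENSG00000019549, chromosome 8, 48917604 to 48921740, hg38), was at 9.37, 6.30 and 5.55 CPM in knockdown replicates 1 to 3, against 10.4, 14.2 and 14.8 CPM in control replicates 1 to 3. All knockdown libraries lay below all controls, but in pair 1 the distance was small. In pair 1 90.0% of the control level remained, with 141 knockdown and 152 control counts whose 95% Poisson intervals overlapped (8.13 to 11.4 and 8.72 to 12.1 CPM on unadjusted totals). In pairs 2 and 3 44.5% and 37.6% remained. The log2 fold change was -0.90 ± 0.224 (SE; edgeR adjusted p = 0.033, and 0.61 without the replicate number), it was -1.28 in replicates 2 and 3 alone, and the call was lost without pair 2 (adjusted p = 0.14).

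ZEB2, which acts in differentiated melanocytes, fell by a smaller amount. ZEB2 (ENSG00000169554, chromosome 2, 144364364 to 144524583, hg38) was at 35.6, 30.2 and 26.3 CPM in knockdown replicates 1 to 3, against 50.7, 36.5 and 36.3 CPM in control replicates 1 to 3. The highest knockdown library lay just below the lowest control, so the groups met without overlapping. In the pairs 70.1%, 82.6% and 72.4% of the control level remained, a log2 fold change of -0.42 ± 0.084 (SE; edgeR adjusted p = 0.015, and 0.85 without the replicate number). It was called in 11 of 11 fits with the replicate number considered (largest adjusted p 0.033).

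ZEB1 (ENSG00000148516, chromosome 10, 31318495 to 31529814, hg38) was at 134, 133 and 134 CPM in knockdown replicates 1 to 3, against 118, 152 and 132 CPM in control replicates 1 to 3. The knockdown libraries stood inside the range of the controls. ZEB1 had a log2 fold change of 0.004 ± 0.078 (SE; edgeR adjusted p = 0.98, and 1.0 without the replicate number), and 0 of 25 alternatives called it.

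TWIST1 (ENSG00000122691, chromosome 7, 19020991 to 19117672, hg38) was at 21.8, 22.1 and 22.5 CPM in knockdown replicates 1 to 3, against 28.1, 27.0 and 25.6 CPM in control replicates 1 to 3. All knockdown libraries lay below all controls, and replicate 1 did not stand apart. Its log2 fold change of -0.28 ± 0.090 (SE) was not called by edgeR (adjusted p = 0.073, and 0.80 without the replicate number). It was called in 2 of 11 fits with the replicate number considered, with replicate 1 as a batch term (adjusted p = 0.034) and with the replicate number but without pair 1 (adjusted p = 0.049).

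**Figure D4:**
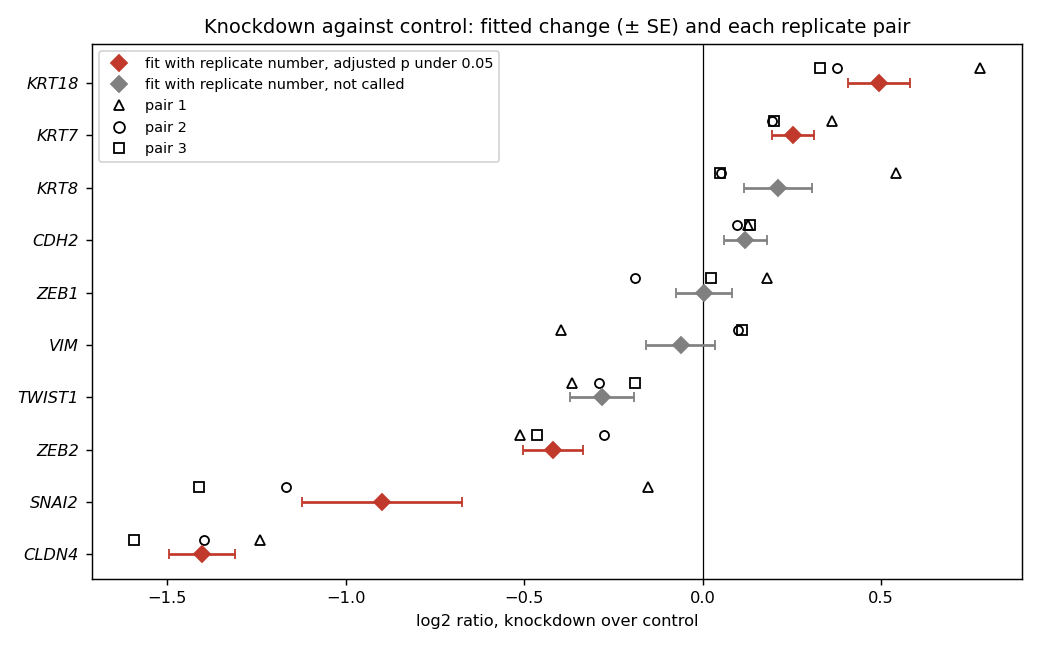
Log2 ratio of knockdown over control for each member: diamonds with SE bars give the fit with the replicate number (red where the adjusted p was under 0.05), and open markers give each replicate pair. CLDN4 is at -1.24 to -1.59 in the pairs, SNAI2 is nearest to 0 in pair 1, and VIM and ZEB1 have pairs on both sides of 0.

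Replicate 1 of both groups stood apart from replicates 2 and 3 in 6 of the 10 members, beside 61.8% of all genes (edgeR, group and replicate 1 as terms). KRT8 (log2 difference -0.69), KRT18 (-0.66) and CDH2 (-0.34) were lower in replicate 1, and CLDN4 (0.46), ZEB2 (0.41) and VIM (0.29) were higher. KRT7 (0.10), SNAI2 (0.06), ZEB1 (-0.13) and TWIST1 (0.03) were not called. The knockdown effect itself differed between replicate 1 and the others in 6 members, larger in KRT8, KRT18, KRT7, SNAI2 and ZEB1 (as a signed value) and smaller in VIM, beside 5.06% of all genes larger and 7.96% smaller (13.0% in all; edgeR interaction term). The same difference was -0.52 for the targeted gene NELFCD. In pairs 1 to 3, 31.55%, 42.4% and 48.2% of its control level remained, and the part of this in the members' effects was not tested. The labels give no reason for the split of replicate 1 from the others. Their protocol names either of a pair of RNA extraction kits without saying which library had which, and its part in the results was not tested.

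Other keratin, claudin and filament genes were counted against the shares over all genes, 5.48% higher and 8.01% lower. Without the replicate number edgeR called no gene of these lists, and DESeq2 called CGNL1 (adjusted p = 0.0039) and the endothelial marker CDH5 (9.2e-14) beside CLDN4. Of 42 other keratin genes 6 passed the filter and 22 had no count in any library, and the epithelial keratin KRT19 had 1 to 10 counts. KRT19 was not tested, and stood at 0.0874 ± 0.0397 CPM in knockdown and 0.649 ± 0.0318 CPM in control cells (SD, n = 3 each). KRT81, a hair keratin with near-identical paralogs that leave its reads uncertain, fell (1.34 ± 0.507 CPM in knockdown and 5.51 ± 6.003 CPM in control cells, SD, n = 3 each; log2 fold change -1.75, edgeR adjusted p = 0.032), and its pairs ran from -2.73 to -0.14. The KRT81 call was lost in replicates 2 and 3 alone (-0.94, adjusted p = 0.081), with the replicate number but without pair 1 (-0.92, 0.084) and without pair 2 (0.13), and leaving out control replicate 1 without the replicate number gave -0.62. KRT80 (0.04) and KRT10 (0.03) were not called. Of 20 other claudins 5 were tested, and edgeR called 0, among them CLDN1 (206 CPM in knockdown and 236 CPM in control cells, log2 fold change -0.12) and CLDN12 (-0.15). Of 22 other intermediate filament and linker genes 12 were tested and 2 fell (edgeR adjusted p = 0.014 and 0.025). They were nestin NES (-1.23), a filament of neural progenitors, and the nuclear lamin LMNB1 (-0.29). The LMNB1 call was lost without pair 2 (-0.33, edgeR adjusted p = 0.11). The linkers PLEC (-0.23) and MACF1 (-0.06) were not called.

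Of 20 other tight junction genes 14 were tested, 3 fell and 0 rose (edgeR adjusted p 0.0082 to 0.035), with a list median of -0.22, beside 8.01% lower, 5.48% higher and a median of 0.00 over all genes. PATJ (-1.19), a scaffold of the apical polarity complex, CGNL1 (-1.18), a cytoskeletal linker at junctions, and occludin OCLN (-0.58) fell, and TJP1 (-0.23) and AMOTL1 (-0.21) were not called. CGNL1 and PATJ were low, at 2.43 and 1.24 CPM in knockdown and 5.51 and 2.84 CPM in control cells. Without pair 2 the calls of PATJ (adjusted p = 0.16) and OCLN (0.17) were lost, and without pair 3 that of OCLN (0.052). DESeq2 with the replicate number did not call PATJ (adjusted p = 0.077). Of 10 tested desmosome and hemidesmosome genes the plakophilin PKP2 rose (0.54, edgeR adjusted p = 0.012) and the hemidesmosome integrin ITGB4 fell (-1.45, 0.03), while the desmosomal cadherin DSG2 (0.02) and the integrin ITGA6 (0.17) were not called. ITGB4 was 1.504 CPM in knockdown and 4.34 CPM in control cells, and its value without the replicate number turned to 1.37 when control replicate 1 was left out. Without pair 2 neither PKP2 (adjusted p = 0.067) nor ITGB4 (0.058) was called, and DESeq2 with the replicate number did not call ITGB4 (0.061). E-cadherin (CDH1), the epithelial counterpart of N-cadherin, had 0 or 1 count per library. Of 7 tested cadherins and catenins vinculin VCL fell (-0.27, edgeR adjusted p = 0.038), and CTNNA1 (0.08) and CTNNB1 (-0.04) were not called. The VCL call was lost without pair 2 (-0.32, edgeR adjusted p = 0.12) and without pair 3 (-0.31, 0.066). It was also lost with the replicate number and upper-quartile scaling (-0.22, edgeR adjusted p = 0.055).

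Among 16 tested EMT transcription factors and their partners 3 rose and 4 fell, beside 5.48% of all genes higher and 8.01% lower. ID1 (0.63), ID2 (1.40) and ID3 (0.82), which bind helix-loop-helix factors and keep them from DNA, rose. ID1 was at 71.0 CPM in knockdown and 45.3 CPM in control cells, and ID3 at 47.1 CPM in knockdown and 27.1 CPM in control cells. ID2 was low, at 2.48 CPM in knockdown and 0.936 CPM in control cells. The helix-loop-helix factor TCF4 fell (-0.92), and so did, chosen after their values were seen, TWIST2 (-0.60), the chromatin protein HMGA2 (-0.49) and SOX9 (-0.46). TWIST2, the paralog of TWIST1, was at 23.6 CPM in knockdown and 35.8 CPM in control cells and lower in each pair (-0.62, -0.53 and -0.65). SNAI1, also chosen after its values were seen, was at 2.32 CPM in knockdown and 2.36 CPM in control cells, a log2 fold change of -0.002 that was not called. FOSL1 (0.07) and TCF3 (0.03) were not called. Adjusted p-values of the 7 called genes in edgeR's fit ran from 0.00098 for ID3 to 0.036 for ID2. Without pair 2 the calls of ID2 (1.62, edgeR adjusted p = 0.056) and SOX9 (-0.53, 0.052) were lost. DESeq2 with the replicate number did not call ID2 (1.42, adjusted p = 0.061).

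Of 26 epithelial regulators and surface genes 9 passed the filter and 3 of these fell (edgeR adjusted p 0.0047 to 0.032), beside 8.01% of all genes lower. The protease inhibitors SPINT1 (-1.43) and SPINT2 (-0.43) and the transcription factor KLF4 (-0.27) fell, and KLF5 (0.02) and AP1M2 (0.35) were not called. KLF4 was at 200.1 CPM in knockdown and 232.5 CPM in control cells, SPINT2 at 112 CPM in knockdown and 150.5 CPM in control cells, and AP1M2 at 27.6 CPM in knockdown and 22.6 CPM in control cells. Without pair 2 the calls of SPINT1 (adjusted p = 0.061) and KLF4 (0.23) were lost and SPINT2 stood at 0.05, and without pair 3 that of KLF4 was lost (0.23). The KLF4 call was also lost with the replicate number and upper-quartile scaling (edgeR adjusted p = 0.067). GRHL2 and OVOL2, regulators of epithelial identity, had 0 counts in each library, which allows at most 0.180 to 0.210 CPM (3 counts per library). EPCAM had 0 to 9 counts and ESRP1 had 2 to 11.

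**Figure D5:**
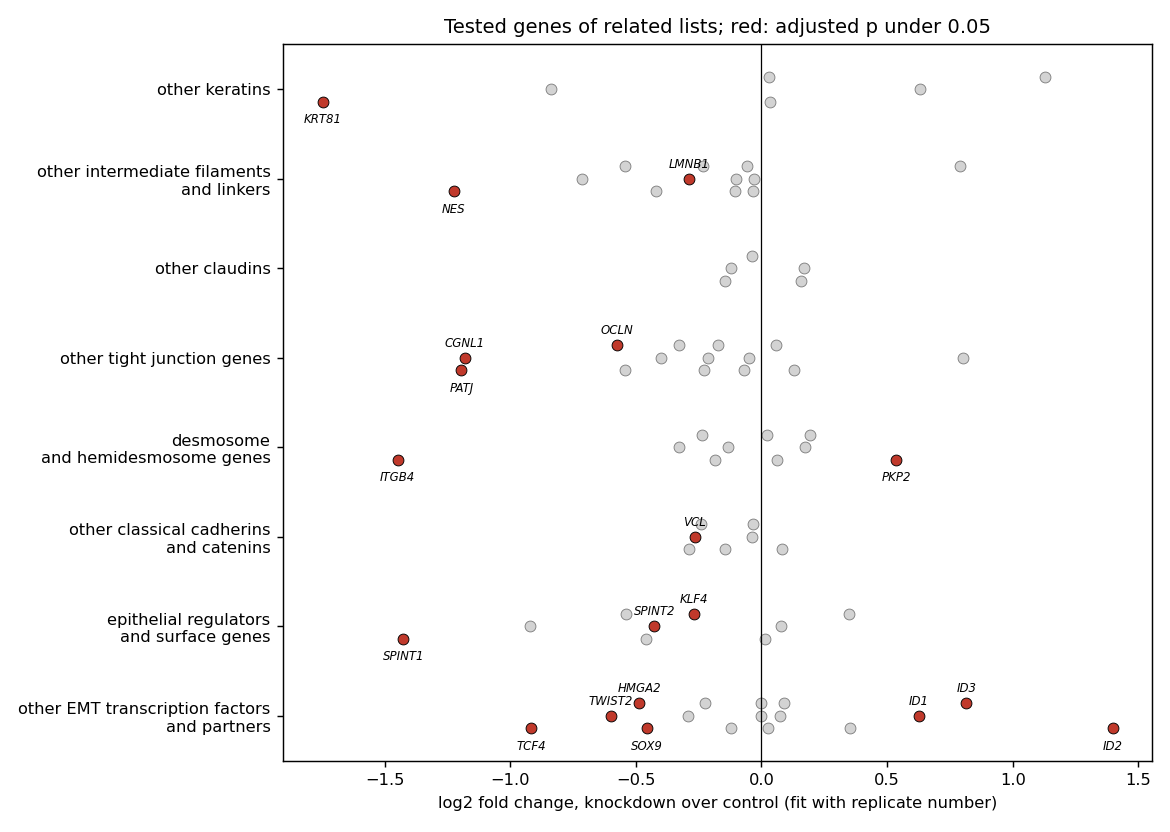
Log2 fold change (fit with the replicate number) of every tested gene in 8 related lists, with genes at an adjusted p under 0.05 in red and named. The 3 ID genes and PKP2 lie to the right of 0, and the called tight junction genes to the left.

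ZEB1-AS1, an RNA antisense to the ZEB1 start, rose (14.2 ± 4.58 CPM in knockdown and 8.54 ± 2.02 CPM in control cells, SD, n = 3 each; log2 fold change 0.72, edgeR adjusted p = 0.0085), while VIM-AS1 (0.46) and KRT7-AS (0.22) were not called. Without a stated strand setting, reads of ZEB1 and ZEB1-AS1 from shared exon bases (9.6% of ZEB1-AS1) cannot be told apart. The same holds for VIM and VIM-AS1 (32.2% of VIM-AS1) and for KRT7 and KRT7-AS (16.7% of KRT7-AS). Of the members' own exon bases, genes on the other strand share 24.4% in VIM, 7.7% in KRT7 and 6.9% in TWIST1. They share 5.2% in ZEB2, 4.2% in ZEB1 and 2.7% in CDH2. Melanocyte markers were low, and 3 of 12 passed the filter. These were MITF (39 to 81 counts per library), TYRP1 (44 to 138) and MLANA (9 to 36), detected in every library and not called. OCA2 and TRPM1 had no count and TYR had 0 or 1. The list summed to 7.68 to 18.3 CPM in knockdown and 7.50 to 11.1 CPM in control libraries. Of 8 leukocyte markers 0 passed the filter (0.332 to 1.03 CPM in knockdown, 0.876 to 1.20 CPM in control libraries). Of 8 fibroblast markers 2 passed, DCN had no count, and the sum was 3.50 to 4.59 CPM in knockdown and 6.82 to 7.08 CPM in control libraries. FAP among them fell (2.88 CPM in knockdown and 5.36 CPM in control cells, log2 fold change -0.91, edgeR adjusted p = 0.036). Of 8 endothelial markers 4 passed and the sum, mostly TIE1 and CDH5, was 279 to 358 CPM in knockdown and 375 to 491 CPM in control libraries. CDH5, the cadherin of endothelial cells, fell (53.7 ± 2.95 CPM in knockdown and 140.2 ± 17.8 CPM in control cells, SD, n = 3 each; log2 fold change -1.38, edgeR adjusted p = 0.00015), and TIE1 was not called (-0.18). The part of these cell type markers in the results was not tested.

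For each member the protein-coding genes with the most similar profile over the 6 libraries were sought among 9100 genes, by the root mean square difference of centred log2 CPM. KRT18, with a range of 1.26 on the log2 scale, was nearest to ABLIM1 and NSF (0.05 each). CLDN4, with the widest range of the members (1.94), was nearest to ERP29 (0.13) and C12orf57 (0.18). SNAI2 was nearest to LTBP2 (0.09) and ELFN2 (0.18). KRT8 was nearest to PPP5C and PPP1R14B (0.04 each), and KRT7 to EBPL (0.01) and FAU (0.02). ZEB2 was nearest to CREB3L2 and SLC7A11 (0.04 and 0.05), and TWIST1 to STK38L and MON2 (0.02 and 0.03). VIM was nearest to TYK2 and COG6 (0.04 each), CDH2 to SRP14 and AIMP1 (0.01 and 0.02), and ZEB1 to PREB and NDUFA4 (0.03 and 0.04).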

How the data were processed

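Gene expression was measured by RNA-seq in 6 Mum-2b libraries. The raw counts per gene were deposited by the authors, on hg38 per the submitters' processing notes, and the aligner, counter and strand setting are not given in the sources used here. Library preparation used the SMARTER mRNA-seq kit, per the labels' protocols. The FPKM values deposited by the authors equal the count divided by gene length and by a constant per library, 0.982 to 1.07 times its total. Totals were 14306733 to 16656630 counts. Gene coordinates matched GENCODE 29 for the 10 members.

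Counts were tested with edgeR 4.0.16 in R 4.3.3 (filterByExpr, TMM, quasi-likelihood F-test with robust estimation, Benjamini-Hochberg, 0.05) on 14844 genes. SE is the log2 fold change divided by the root of F. The design without a replicate term was the planned one, with the replicate number as a block as alternative. Same-numbered libraries deviated together (correlations across genes 0.838, 0.629 and 0.616), so the numbers paired the samples, from the data and not the labels. Replicate 1 carries the pairing, since the difference between replicates 2 and 3 correlated at -0.005 between the groups. The chi-square statistic of replicates 2 against 3, divided by its degrees of freedom, was 2.06 in knockdown and 2.21 in control libraries, where counting noise gives 1, so none was treated as a duplicate. DESeq2 1.42.0 and limma 3.58.1 (voom, and log2(FPKM + 1) and log2(FPKM + 0.1)) were alternatives.

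Members and lists were chosen with earlier results of these data known. Per list, the text names up to 4 called genes of at least 1 CPM with the largest fold change and up to 2 uncalled ones of highest expression, plus the 2 nearest profiles of each member at 10 CPM or more. One gene of the lists is not reported here and is left out of their counts.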

Additional observations from a re-analysis of the deposited data

Results flagged for a closer look

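In 6 of the 10 members the knockdown effect in replicate 1 differed from that in replicates 2 and 3 by a test of the difference itself, beside 13.0% of all genes (edgeR interaction term, Benjamini-Hochberg adjusted). On the log2 scale the effect in replicate 1 minus that in replicates 2 and 3 was 0.49 for KRT8 (adjusted p = 7.9e-12), 0.42 for KRT18 (7.9e-08) and 0.17 for KRT7 (0.022). It was -0.50 for VIM (adjusted p = 1.6e-14), 1.13 for SNAI2 (0.0011) and 0.26 for ZEB1 (0.031). The 3 keratins were higher by more in pair 1, VIM was lower in the knockdown in pair 1 and higher in pairs 2 and 3, and SNAI2 was lower mainly in pairs 2 and 3. This test has 1 pair on one side and rests on the small spread between replicates 2 and 3.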

How the results depend on the processing

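Without the replicate number edgeR called 0 genes, and so did leaving out any 1 library, both other scalings, limma-voom, no filter, a mean of at least 5 CPM and both log2 FPKM pseudocounts. DESeq2 called 161 genes (1.23% of those tested) and 1 member. With the replicate block, which pairs libraries of one number, 2002 genes (13.5% of those tested) and 5 members were called. The block gave 4090, 932 and 1760 genes (7, 3 and 4 members) without replicate 1, 2 and 3, 1358 (5) in DESeq2, 2130 (5) in limma-voom, 2184 (5) with upper-quartile scaling, 2040 (5) with DESeq2 size factors and 2888 (6) without a filter. Of the genes tested these were 10.1% in DESeq2 and 14.3% in limma-voom. For the other block fits no share was taken, so their member counts stand without one. Replicate 1 as a batch term gave 3117 genes (21.0%) and 6 members. Replicates 2 and 3 alone gave 3758 genes (25.3%) and 6 members. Upper-quartile scaling shifted the median of all genes by 0.048 and turned the split of calls under the block to 1198 higher and 986 lower, against 813 and 1189. KRT18, CLDN4 and ZEB2 were called in all 11 fits that used the replicate number or left replicate 1 out. Signs turned in these log2 fold changes, and the cause was not tested. With replicates 2 and 3 alone, and with the block without replicate 1, VIM was 0.104 in both, KRT10 -0.044 and -0.045, CLDN1 0.068 and 0.069, and SNAI1 0.120 and 0.118. With the block ZEB1 was 0.004 (batch term 0.002, limma-voom 0.003, upper quartile 0.051, without replicate 2 0.10), and without it 0.046 (upper quartile), 0.005 (limma-voom) and 0.014 (5 CPM). CTNNB1 was 0.011 with upper-quartile scaling and 0.012 with the block as well, and SNAI1 was 0.027 and 0.048 there and 0.015 in limma-voom. KRT10 was 0.000 with DESeq2 size factors and in DESeq2, and -0.004 without a filter. KLF5 was -0.052 and -0.078 with the block without replicates 2 and 3, and -0.007 and -0.011 on log2(FPKM + 1) and log2(FPKM + 0.1). Leaving out 1 library without the block gave ranges of -0.088 to 0.308 for KRT8, -0.180 to 0.112 for VIM, -0.088 to 0.097 for ZEB1, -0.253 to 0.213 for KRT10, -0.274 to 0.322 for KRT80, -0.610 to 0.136 for LMNB1, -0.397 to 0.265 for CLDN1, -0.574 to 0.314 for CLDN12, -0.473 to 0.092 for AMOTL1, -4.027 to 1.370 for ITGB4, -0.068 to 0.414 for ITGA6, -0.115 to 0.044 for CTNNB1, -0.110 to 0.130 for TCF3, -0.069 to 0.221 for FOSL1, -0.224 to 0.316 for SNAI1, -0.924 to 0.357 for KLF4, -0.102 to 0.209 for KLF5, -3.183 to 0.006 for SPINT1 and -0.079 to 0.568 for AP1M2. Depth limits SNAI2 (81 to 236 counts per library) most among the members.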
